A study of Mus musculus with 18 samples.

Results

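ERK feedback genes are genes that active ERK turns on and whose products, for the most part, turn the same pathway down again. The group described here has 10 genes of the 22792 counted, chosen by name from their Entrez Gene identifiers. No measured value entered that rule, but the genes were chosen with earlier results of these data known. These are the phosphatase genes Dusp4, Dusp5 and Dusp6, the Sprouty genes Spry1, Spry2 and Spry4, the SPRED genes Spred1 and Spred2, and the ETS transcription factor genes Etv4 and Etv5. Their RNA was measured by bulk RNA-seq in 18 mammary tumors, 1 per mouse, grown from 4T1, a triple-negative carcinoma line of mouse. Every mouse was a female Balb/c animal aged 8 weeks with a working immune system, received 300000 4T1 cells, and was treated from day 7 to day 21 after that injection. Vehicle mice (n = 5) received the carrier alone, and PI3Ki mice (n = 4) received CLR457, a pan-PI3K inhibitor, at 20 mg/kg 2 times a day. SHP2i mice (n = 4) received SHP099, an allosteric inhibitor of the phosphatase SHP2, at 100 mg/kg 1 time a day, and Combo mice (n = 5) received both drugs. Tumors were collected 3 h after the last dose, so the values show genes after long treatment and soon after a dose, in a single cell line model. The comparisons ask how blocking SHP2, PI3K or both changed the RNA of genes that report on ERK in these tumors.

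Growth factor receptors recruit SHP2, which helps to activate RAS, and RAS drives the kinases RAF, MEK and ERK. Active ERK induces DUSP phosphatases that dephosphorylate MAP kinases, Sprouty proteins that restrain signals from receptors to RAS, and SPRED proteins that bring neurofibromin, an inactivator of RAS, to the membrane. ETV4 and ETV5 are ETS factors of the PEA3 subfamily that carry ERK and FGF receptor signals to transcription. In breast and other carcinomas the RNA of such genes is commonly read as a record of ERK output, although each of them also answers to other inputs and cell types.

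Between 21.16 M and 26.62 M counts were available for each tumor. Levels are CPM, counts per M counts after TMM scaling, and a gene is called higher or lower at a Benjamini-Hochberg adjusted p under 0.05 over the 15282 genes tested with edgeR's quasi-likelihood test. All 10 feedback genes passed the filter on low counts. None of the 10 markers of carcinoma epithelium was at 0 in any group. Their summed level was 809 to 1280 CPM in Vehicle and 960 to 1400 CPM in PI3Ki. It was 890 to 1200 CPM in SHP2i and 709 to 1070 CPM in Combo. Against Vehicle, 0 of these markers were called in PI3Ki and SHP2i, and 1 was called lower in Combo. Combo also had 1 called lower against SHP2i and 2 against PI3Ki. Other cell types differed between groups as well. The summed level of 10 macrophage markers was 2010 to 2640 CPM in Vehicle and 1990 to 3700 CPM in PI3Ki. It was 705 to 1550 CPM in SHP2i and 372 to 1460 CPM in Combo. Of the 10, 0 were called in PI3Ki against Vehicle, and 7 and 8 were called lower in SHP2i and Combo. The summed level of 10 endothelial markers was 620 to 789 CPM in Vehicle, 522 to 674 CPM in PI3Ki, 636 to 943 CPM in SHP2i and 379 to 466 CPM in Combo, with 0, 0 and 9 of the 10 called lower. Skeletal muscle markers summed to 837 to 2010 CPM in PI3Ki and to at most 104 CPM in any other group. B cell markers summed to 625 CPM in Combo tumor 3 and 263 CPM in Combo tumor 4, against at most 42.6 CPM in the other Combo tumors. They summed to 38.5 to 123 CPM in Vehicle, 3.27 to 317 CPM in PI3Ki and 11.1 to 28.7 CPM in SHP2i, where 1 of 10 was called lower than in Vehicle, with a median log2 fold change of -4.06. Neutrophil markers summed to 508 to 2490 CPM in PI3Ki, 296 to 473 CPM in Vehicle, 184 to 329 CPM in SHP2i and 93.7 to 336 CPM in Combo, where 1 of them was at 0 in every tumor. Of the 9 neutrophil markers tested, 2 were called higher in PI3Ki, 0 were called in SHP2i and 6 were called lower in Combo. Fibroblast markers summed to 2370 to 5490 CPM in Combo and 3980 to 6840 CPM in Vehicle, with 4 lower and 2 higher in Combo. They summed to 4710 to 15500 CPM in PI3Ki and 5130 to 12200 CPM in SHP2i, with 0 called against Vehicle. T and NK cell markers summed to 61.7 to 136 CPM in Vehicle, 77.8 to 109 CPM in PI3Ki, 30.3 to 87.5 CPM in SHP2i and 20.9 to 98.8 CPM in Combo. Of the 9 tested, 0 were called in PI3Ki, 1 was called lower in SHP2i and 5 were called lower in Combo. Adipocyte markers summed to 240 to 555 CPM in Vehicle and 330 to 1400 CPM in Combo, with 3 of 9 called higher in Combo. They summed to 186 to 651 CPM in PI3Ki and 517 to 719 CPM in SHP2i, with 0 called against Vehicle. In bulk tumors, fewer cells of a type and less RNA per cell cannot be told apart, and the part of these cell types in the results below was not tested.

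The promoters of 4 genes on which the results turn are shown because ETS factors, serum response factor and other targets of ERK act through such sequences. Windows of 250 bases before the transcription start were taken from RefSeq sequence (GRCm38.p6), and 7 of the 10 genes had such a window. Dusp4, Spry4 and Etv4 had none. Each is printed 5′ to 3′ on the strand of the gene. Capitals mark 6-letter ETS motifs (CCGGAA or AGGAAG), CArG boxes (the binding element of serum response factor), CRE cores (TGACG) and GC boxes (GGGCGG), each on either strand. AP-1 sites (TGANTCA) and full CRE sites (TGACGTCA) were searched as well. The CArG box was added to the search after the Dusp5 sequence had been read.
Dusp5 (chr19:53528895-53529144, plus strand): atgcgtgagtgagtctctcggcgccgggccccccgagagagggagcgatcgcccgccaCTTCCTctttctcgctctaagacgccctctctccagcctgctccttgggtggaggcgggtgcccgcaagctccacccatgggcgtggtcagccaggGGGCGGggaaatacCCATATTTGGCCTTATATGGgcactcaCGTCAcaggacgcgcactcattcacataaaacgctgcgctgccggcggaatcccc
Dusp6 (chr10:99262981-99263230, plus strand): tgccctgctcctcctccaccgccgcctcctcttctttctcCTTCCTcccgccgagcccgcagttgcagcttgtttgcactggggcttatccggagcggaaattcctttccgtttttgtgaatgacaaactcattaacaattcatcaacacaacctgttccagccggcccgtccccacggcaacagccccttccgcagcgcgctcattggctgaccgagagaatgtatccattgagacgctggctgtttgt
Etv5 (chr16:22439571-22439820, minus strand): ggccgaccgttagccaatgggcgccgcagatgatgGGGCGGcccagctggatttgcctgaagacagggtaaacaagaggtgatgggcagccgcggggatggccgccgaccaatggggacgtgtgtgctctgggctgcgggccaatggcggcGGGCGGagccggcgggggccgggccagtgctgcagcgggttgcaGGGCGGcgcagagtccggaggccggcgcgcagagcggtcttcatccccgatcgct
Spry1 (chr3:37639697-37639946, plus strand): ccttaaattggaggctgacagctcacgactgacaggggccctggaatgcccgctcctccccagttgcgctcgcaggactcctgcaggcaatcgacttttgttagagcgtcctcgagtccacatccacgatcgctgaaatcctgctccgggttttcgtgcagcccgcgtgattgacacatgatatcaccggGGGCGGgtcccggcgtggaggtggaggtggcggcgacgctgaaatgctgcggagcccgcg
The Dusp5 window held 2 CArG boxes, which begin 82 and 72 bases before the start, a GC box at 96 bases, a CRE core at 55 bases and AGGAAG on the opposite strand at 192 bases. Among 32851 mouse promoter windows of the same length, 1.47% held a CArG box and 0.0183%, or 6 windows, held at least 2. Dusp5 and Srf, the gene of serum response factor itself, were the only genes among these 6 windows that were tested here. Against Vehicle, Srf had log2 fold changes of -0.333 in PI3Ki (SE 0.104, adjusted p = 0.0755) and 0.125 in SHP2i (SE 0.104, adjusted p = 0.444). In Combo it was at -0.27 (SE 0.098, adjusted p = 0.0336), beside -2.0 for Dusp5. A part of the CArG boxes in the fall of Dusp5 was not tested. The Dusp6 window held AGGAAG on the opposite strand at 210 bases, a motif present in 29.5% of all windows. The Etv5 window held 3 GC boxes and the Spry1 window 1, a motif present in 32.7% of all windows, and neither held an ETS motif. Spred1 held 2 GC boxes, Spred2 held AGGAAG 2 times with a GC box and a CRE core, and the Spry2 window and a further Etv5 window held none of the motifs. CCGGAA (12% of all windows), the AP-1 site (6.75%) and the full CRE (1.55%) were in no window of these genes, and the CRE core was in 17.8% of all windows. A match is a run of letters and shows no binding.

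The feedback genes did not move as a block. SHP2 inhibition alone lowered Etv5, Dusp6 and Dusp5 and left the other 7 uncalled. The combination lowered Dusp5 and Spry4 most, lowered Dusp6 and Etv5 less, and raised Spry1, Dusp4, Spred2 and Spry2. PI3K inhibition alone changed none of them at the adjusted threshold. Against Vehicle, 3 of 10 members were called lower and 0 higher in SHP2i, where 11.6% of all genes tested were called, 6.54% of them lower and 5.05% higher as shares of all genes. In Combo, 4 were called higher and 4 lower, where 43.6% of all genes were called, 23.9% higher and 19.7% lower. In PI3Ki, 0 were called and 1 had an unadjusted p under 0.05, where 5.11% of all genes were called, 2.69% higher and 2.42% lower. DESeq2 called 1 in PI3Ki (Spry4). The median log2 fold change of the 10 genes was 0.10 in PI3Ki, -0.09 in SHP2i and 0.07 in Combo, beside 0.01, 0.02 and 0.02 over all genes tested. The 3 comparisons share the Vehicle tumors.

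Some members separated the groups tumor by tumor. In SHP2i against Vehicle the groups did not overlap for 3 of 10 members, all lower, a pattern seen in 19.1% of all genes. In Combo against Vehicle this held for 5 members (3 higher, 2 lower) and for 28.9% of all genes, and in PI3Ki for 0 members and 10.5% of all genes. In Combo against SHP2i it held for 5 members (17.1% of all genes), in Combo against PI3Ki for 5 (24.4%) and in SHP2i against PI3Ki for 3 (24.8%). Most differences were modest in size. With a log2 fold change over 1 in either direction also required, Dusp5, Spry1 and Spry4 were left in Combo against Vehicle (10.9% of all genes), and none was left in SHP2i (3.74% of all genes) or PI3Ki (1.75%). Dusp5 and Spry1 were left in Combo against SHP2i (4.57%), Dusp5 in Combo against PI3Ki (11.1%) and in the interaction (1.67%), and Etv5 in SHP2i against PI3Ki (6.63%).

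**Figure D1:**
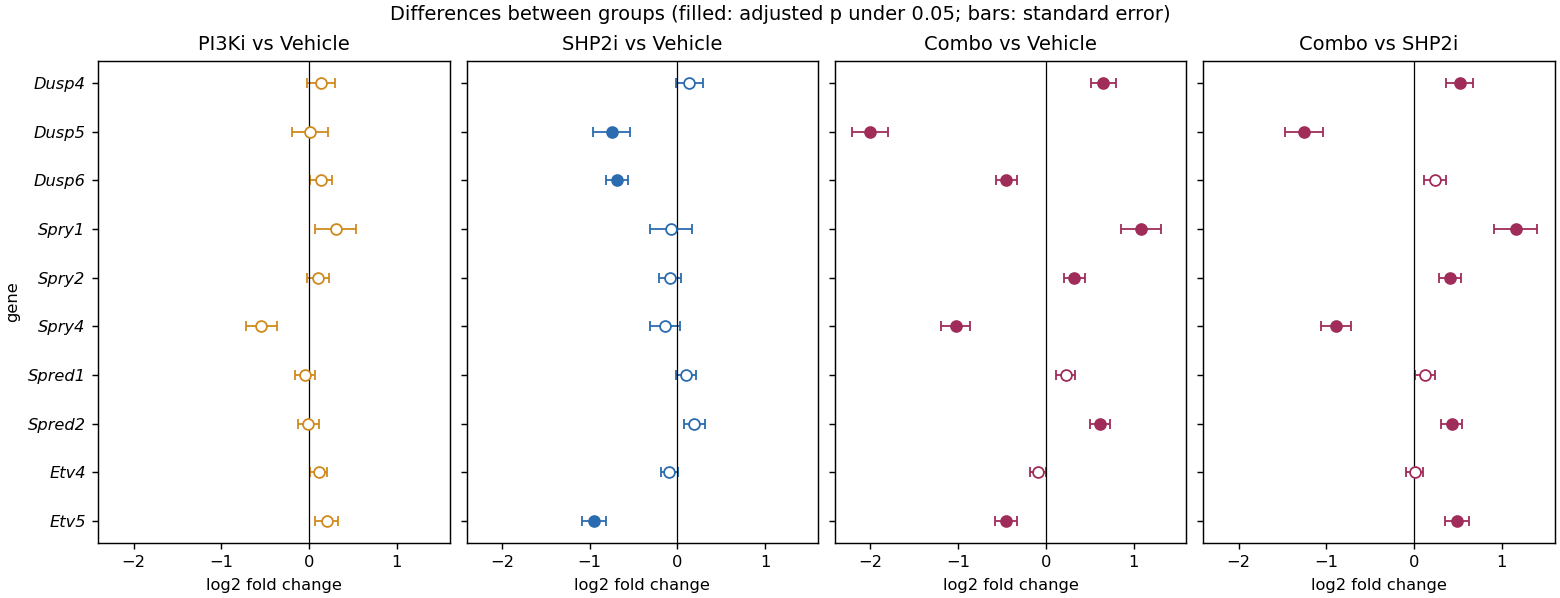
Log2 fold changes of the 10 ERK feedback genes (rows) with standard errors (bars) in PI3Ki, SHP2i and Combo against Vehicle and in Combo against SHP2i. Filled points have an adjusted p under 0.05. Dusp5 lies at -0.75 in SHP2i and -2.0 in Combo against Vehicle, while Spry1 lies at -0.07 and 1.09.

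Dusp5 (chr19:53529145-53541809) encodes a nuclear phosphatase that acts on ERK and was the member that fell most. Its level was 19.7, 16.8, 16.4, 14.2 and 14.7 CPM in Vehicle tumors 1 to 5, and 17.7, 17.6, 13.2 and 17.5 CPM in PI3Ki tumors 1, 2, 3 and 5. In SHP2i tumors 2 to 5 it was 8.49, 7.30, 12 and 11.2 CPM, and in Combo tumors 1 to 5 it was 3.02, 3.62, 6.81, 3.84 and 3.10 CPM. The levels fell in steps that do not overlap, with every Combo tumor below every SHP2i tumor and every SHP2i tumor below every Vehicle and PI3Ki tumor. The group means were 16.4 ± 2.18 (SD, n = 5) in Vehicle, 16.5 ± 2.2 (n = 4) in PI3Ki, 9.73 ± 2.21 (n = 4) in SHP2i and 4.08 ± 1.57 CPM (n = 5) in Combo. Against Vehicle the log2 fold change was -0.75 (SE 0.212, adjusted p = 0.03) in SHP2i and -2.0 (SE 0.207, adjusted p = 1.93e-06) in Combo. In PI3Ki it was 0.01 (SE 0.207, adjusted p = 0.986). Combo was also lower than SHP2i by a log2 fold change of -1.25 (SE 0.214, adjusted p = 0.000822), so adding CLR457 to SHP099 lowered Dusp5, although no difference was called for CLR457 alone. The test of that contrast, the interaction of both inhibitors, gave -1.26 on the log2 scale (SE 0.297, adjusted p = 0.034). It was the only member called in the interaction, where 2.47% of all genes were called, 1.61% lower. The call of SHP2i against Vehicle was lost without Vehicle tumor 1, 2 or 3 or SHP2i tumor 2 or 3 (adjusted p from 0.0569 to 0.0871), and that of the interaction in 13 of 18 fits without a single tumor (adjusted p from 0.0509 to 0.0915). Leaving out Combo tumor 3, the highest of its group and the tumor with the most B cell marker RNA, gave -1.53 (adjusted p = 0.00307). That direction follows from leaving out the highest Combo tumor, so this fit does not bear on how firm the call is. An opposite-strand gene, AC137853.2, overlaps exons of Dusp5, and the strand setting of the counting is not given in the sources used here. Of the 10 endothelial markers, 9 were called lower in Combo against SHP2i, 0 in PI3Ki against Vehicle and 4 in the interaction. The shares of all genes called were 22.1%, 5.11% and 2.47% in these comparisons. A part of endothelial cells in the fall of Dusp5 was not tested.

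Dusp6 (chr10:99263231-99267489) encodes the cytoplasmic phosphatase that binds and inactivates ERK. Its level was 276, 290.4, 283, 279 and 259 CPM in Vehicle tumors 1 to 5, and 345, 283, 303 and 285 CPM in PI3Ki tumors 1, 2, 3 and 5. It was 161, 176, 149 and 204 CPM in SHP2i tumors 2 to 5 and 161, 222, 166, 262 and 205 CPM in Combo tumors 1 to 5. Every SHP2i tumor was below every Vehicle tumor, whereas Combo tumor 4 lay above Vehicle tumor 5, the lowest of its group. Dusp6 fell by 0.69 on the log2 scale in SHP2i (SE 0.127, adjusted p = 0.00241) and by 0.45 in Combo (SE 0.119, adjusted p = 0.00587). Combo and SHP2i differed by 0.24 (SE 0.126, adjusted p = 0.187), less than the test could separate. The mean in Combo (203 ± 41.8 CPM) lay above that in SHP2i (172 ± 23.8 CPM), so there was no further drop of Dusp6 with both drugs.

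Dusp4 (chr8:34807610-34819894), whose product is a nuclear phosphatase of ERK and other MAP kinases, went the other way. Its level was 65.2, 59.6, 63.3, 75.6 and 85.5 CPM in Vehicle tumors 1 to 5, 83.7, 68.8, 89.1 and 65.3 CPM in PI3Ki tumors 1, 2, 3 and 5, and 57.7, 99.8, 72.9 and 77.0 CPM in SHP2i tumors 2 to 5. In Combo tumors 1 to 5 it was 95.1, 109, 99.4, 143 and 103.8 CPM. All Combo tumors were above all Vehicle and PI3Ki tumors, and SHP2i tumor 3 lay within the Combo range. The log2 fold change against Vehicle was 0.66 in Combo (SE 0.147, adjusted p = 0.00181), 0.14 in SHP2i (SE 0.155, adjusted p = 0.587) and 0.14 in PI3Ki (SE 0.155, adjusted p = 0.706). Combo was higher than SHP2i by 0.52 (SE 0.157, adjusted p = 0.0252) and than PI3Ki by 0.52 (SE 0.156, adjusted p = 0.0147). The first of these calls was lost without SHP2i tumor 2, 4 or 5 or Combo tumor 4 (adjusted p from 0.0542 to 0.0939). The call against PI3Ki was lost without PI3Ki tumor 2 or 5 or Combo tumor 4 (adjusted p from 0.0546 to 0.0674).

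**Figure D2:**
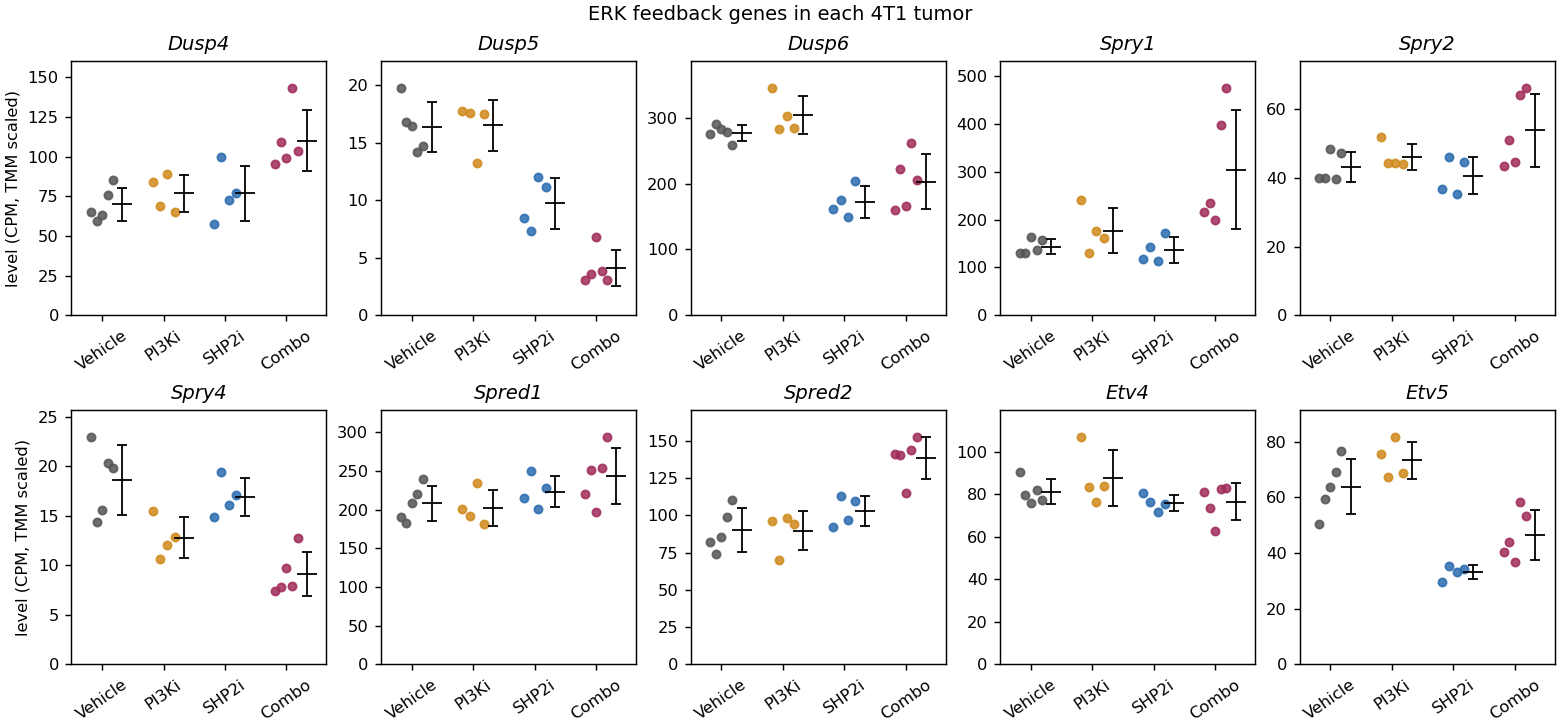
Level of each ERK feedback gene (CPM, TMM scaled, axes from 0) in each tumor of the 4 groups. Points are tumors, the horizontal line is the group mean and the bars are ± 1 SD. Dusp5 is at 3.02 to 6.81 CPM in Combo and 14.2 to 19.7 CPM in Vehicle, and Spry1 is at 198 to 475 CPM in Combo and 129 to 164 CPM in Vehicle.

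The Sprouty genes split in opposite directions under the combination. Spry1 (chr3:37639947-37644599) was at 129, 129.8, 164, 137 and 158 CPM in Vehicle tumors 1 to 5, and at 241, 129, 176 and 162 CPM in PI3Ki tumors 1, 2, 3 and 5. It was at 117, 142, 114 and 172 CPM in SHP2i tumors 2 to 5, and at 216, 234, 198, 399 and 475 CPM in Combo tumors 1 to 5. Every Combo tumor was above every Vehicle and SHP2i tumor, and Combo tumors 4 and 5 stood far above the other three, while PI3Ki tumor 1 reached into the Combo range. Spry1 rose by a log2 fold change of 1.09 in Combo against Vehicle (SE 0.226, adjusted p = 0.00102) and of 1.16 against SHP2i (SE 0.243, adjusted p = 0.00325). Against PI3Ki the difference was 0.78 (SE 0.240, adjusted p = 0.0165), a call that was lost without PI3Ki tumor 2 (adjusted p = 0.076) or Combo tumor 5 (adjusted p = 0.0532), with limma's voom (log2 fold change 0.51, adjusted p = 0.0914) and with the model of those 2 groups alone (adjusted p = 0.0745). The interaction was 0.86 on the log2 scale (SE 0.337, adjusted p = 0.184), so a step larger than the sum of the single drugs was not shown for Spry1. An opposite-strand gene, Gm42922, overlaps exons of Spry1.

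Spry4 (chr18:38586247-38601347) fell. It was at 22.9, 14.4, 15.7, 20.4 and 19.8 CPM in Vehicle tumors 1 to 5, and at 15.5, 10.6, 12.1 and 12.9 CPM in PI3Ki tumors 1, 2, 3 and 5. It was at 14.9, 19.4, 16.1 and 17.1 CPM in SHP2i tumors 2 to 5 and at 7.40, 7.83, 9.71, 7.95 and 12.8 CPM in Combo tumors 1 to 5. All Combo tumors were below all Vehicle and SHP2i tumors, and Combo tumor 5 lay inside the PI3Ki range. Spry4 fell by 1.03 on the log2 scale in Combo against Vehicle (SE 0.163, adjusted p = 0.000107) and by 0.89 against SHP2i (SE 0.171, adjusted p = 0.00183). It was the member nearest to a call in PI3Ki, with a log2 fold change of -0.54 against Vehicle (SE 0.172, adjusted p = 0.0795). DESeq2 called that difference (adjusted p = 0.0315), as did the fit without Combo tumor 5 (adjusted p = 0.039). The Combo level was below the PI3Ki level by 0.49 (log2 fold change -0.49, SE 0.172, adjusted p = 0.0341), a call lost without PI3Ki tumor 1 or 5 or Combo tumor 1, 2 or 4 (adjusted p from 0.0539 to 0.118) and with the model of those groups alone (adjusted p = 0.0748). The log2 fold change of Spry4 in SHP2i was -0.14 (SE 0.171, adjusted p = 0.611). The order of group means, Vehicle, SHP2i, PI3Ki and Combo (18.6 ± 3.51, 16.9 ± 1.94, 12.8 ± 2.06 and 9.14 ± 2.23 CPM, SD), thus put PI3Ki nearer to Combo than SHP2i, the reverse of Dusp5. The difference between SHP2i and PI3Ki was not called (log2 fold change 0.40, SE 0.180, adjusted p = 0.111). Beside this, the 10 endothelial markers had a median log2 fold change of -1.11 in Combo against Vehicle, 0.07 in SHP2i and -0.30 in PI3Ki, where none of them was called, and their part in the fall of Spry4 was not tested.

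Spry2 (chr14:105891947-105896819) moved least among the Sprouty genes. It ranged from 39.8 to 48.5 CPM in Vehicle, 44.2 to 51.8 CPM in PI3Ki, 35.4 to 46.1 CPM in SHP2i and 43.6 to 66.1 CPM in Combo, and the ranges overlap. The log2 fold change in Combo was 0.32 against Vehicle (SE 0.120, adjusted p = 0.0379) and 0.41 against SHP2i (SE 0.129, adjusted p = 0.0315). The call against Vehicle was lost in 9 of 18 fits without a single tumor, 3 of them Vehicle (1, 2, 4), 2 each of PI3Ki (2, 5), SHP2i (2, 5) and Combo (4, 5), with adjusted p up to 0.119. The call against SHP2i was lost without SHP2i tumor 2 or 4 or Combo tumor 4 or 5 (adjusted p from 0.0803 to 0.1).

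Of the SPRED genes, Spred2 rose under the combination and Spred1 did not pass the test. Spred2 (chr11:19924442-20024026) was at 81.8, 73.9, 85.5, 98.6 and 110.6 CPM in Vehicle tumors 1 to 5, 96.1, 70.2, 98.4 and 94.0 CPM in PI3Ki tumors 1, 2, 3 and 5, and 92.1, 113, 97.0 and 109.8 CPM in SHP2i tumors 2 to 5. In Combo tumors 1 to 5 it was at 141, 140.6, 115, 144 and 152 CPM. No Combo tumor was as low as any tumor of the other groups, although Combo tumor 3 was only just above SHP2i tumor 3. The log2 fold change in Combo was 0.62 against Vehicle (SE 0.116, adjusted p = 0.000432), 0.63 against PI3Ki (SE 0.124, adjusted p = 0.000899) and 0.43 against SHP2i (SE 0.123, adjusted p = 0.0202). The last call was lost without SHP2i tumor 2 (adjusted p = 0.0707) or 4 (adjusted p = 0.0572). Spred1 (chr2:117121071-117182279) ranged from 183 to 239.5 CPM in Vehicle and from 197 to 294 CPM in Combo, with a log2 fold change of 0.23 (SE 0.107, adjusted p = 0.0966). Without Combo tumor 3, the lowest of its group, Spred1 was called against Vehicle (adjusted p = 0.0291).

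The ETV genes also parted. Etv5 (chr16:22381313-22439570) was at 50.5, 59.4, 63.6, 69.3 and 76.7 CPM in Vehicle tumors 1 to 5, and at 75.6, 67.3, 81.6 and 68.8 CPM in PI3Ki tumors 1, 2, 3 and 5. It was at 29.6, 35.4, 33.2 and 34.4 CPM in SHP2i tumors 2 to 5 and at 40.3, 44.1, 36.8, 58.2 and 53.4 CPM in Combo tumors 1 to 5. The 4 SHP2i tumors were the lowest of all 18, below every Combo tumor, and Combo tumors 4 and 5 overlapped the lower Vehicle tumors. Etv5 fell by 0.95 on the log2 scale in SHP2i against Vehicle (SE 0.135, adjusted p = 0.000294) and by 0.46 in Combo (SE 0.124, adjusted p = 0.00702). The Combo level was above the SHP2i level by a log2 fold change of 0.49 (SE 0.133, adjusted p = 0.0153), so Etv5 was less reduced with both drugs than with SHP099 alone. That call was lost without SHP2i tumor 2, the lowest of its group (adjusted p = 0.055). The interaction did not pass (0.29, SE 0.187, adjusted p = 0.42). Etv4 (chr11:101769747-101785310), its close relative, ranged from 76.1 to 90.7 CPM in Vehicle, 76.6 to 106.8 CPM in PI3Ki, 71.8 to 80.8 CPM in SHP2i and 62.6 to 83.0 CPM in Combo. Its log2 fold changes against Vehicle were 0.11 in PI3Ki (SE 0.097), -0.09 in SHP2i (SE 0.097) and -0.09 in Combo (SE 0.092), with adjusted p from 0.472 to 0.599.

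Both drugs together were also compared with each drug alone. Against SHP2i, 5 members were higher and 2 lower in Combo, where 22.1% of all genes were called, 11.8% higher and 10.3% lower. The higher genes were Spry1, Dusp4, Etv5, Spred2 and Spry2, and the lower ones Dusp5 and Spry4. Against PI3Ki, 3 were higher and 4 lower, where 37.7% of all genes were called, 19.9% higher and 17.8% lower. Here Dusp5 (log2 fold change -2.01, SE 0.215, adjusted p = 4.15e-06), Etv5 (-0.66, SE 0.131, adjusted p = 0.000982) and Dusp6 (-0.58, SE 0.125, adjusted p = 0.00172) were lower without overlap, and Dusp4 and Spred2 higher without overlap. Spred1 was not called (0.27, SE 0.114, adjusted p = 0.0706) and became called without PI3Ki tumor 3 (adjusted p = 0.0305) or Combo tumor 3 (adjusted p = 0.0212). Set directly against each other, SHP2i was lower than PI3Ki in 3 of 10 members and higher in 0, where 24.5% of all genes were called, 12.8% lower. These were Etv5 (-1.15, SE 0.141, adjusted p = 5.13e-05), Dusp6 (-0.82, SE 0.133, adjusted p = 0.000465) and Dusp5 (-0.76, SE 0.221, adjusted p = 0.0195), with no overlap between the groups, and the Dusp5 call was lost without SHP2i tumor 2 (adjusted p = 0.0582) or 3 (adjusted p = 0.0583).

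Ratios of counts within a tumor set members against each other without any scaling between libraries. The ratio of Dusp4 to Dusp5 ran from 3.31 to 5.82 in Vehicle, 3.73 to 6.75 in PI3Ki, 6.08 to 13.7 in SHP2i and 14.6 to 37.2 in Combo. The ratio of Spry1 to Spry4 was 5.64 to 10.4 in Vehicle, 12.2 to 15.5 in PI3Ki, 7.07 to 10 in SHP2i and 20.4 to 50.2 in Combo. Combo stood above all other groups in both ratios, and PI3Ki stood above Vehicle and SHP2i only in the ratio of Spry1 to Spry4. Both ratios set a gene called higher in Combo over one called lower, so the place of Combo restates the levels above. The ratio of Spry1 to Spry2 was 3.24 to 3.44 in Vehicle, 2.91 to 4.65 in PI3Ki, 3.09 to 3.86 in SHP2i and 4.45 to 7.18 in Combo. The ratio of Etv5 to Etv4 was 0.557 to 0.991 in Vehicle and 0.366 to 0.463 in SHP2i, with 0.497 to 0.706 in Combo and 0.708 to 1.07 in PI3Ki. Dusp6 stood at 3.03 to 4.87 times Dusp4 in Vehicle, 3.4 to 4.37 times in PI3Ki, 1.76 to 2.79 times in SHP2i and 1.67 to 2.04 times in Combo, so SHP2i and Combo overlap in this ratio. These ratios were not tested.

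**Figure D3:**
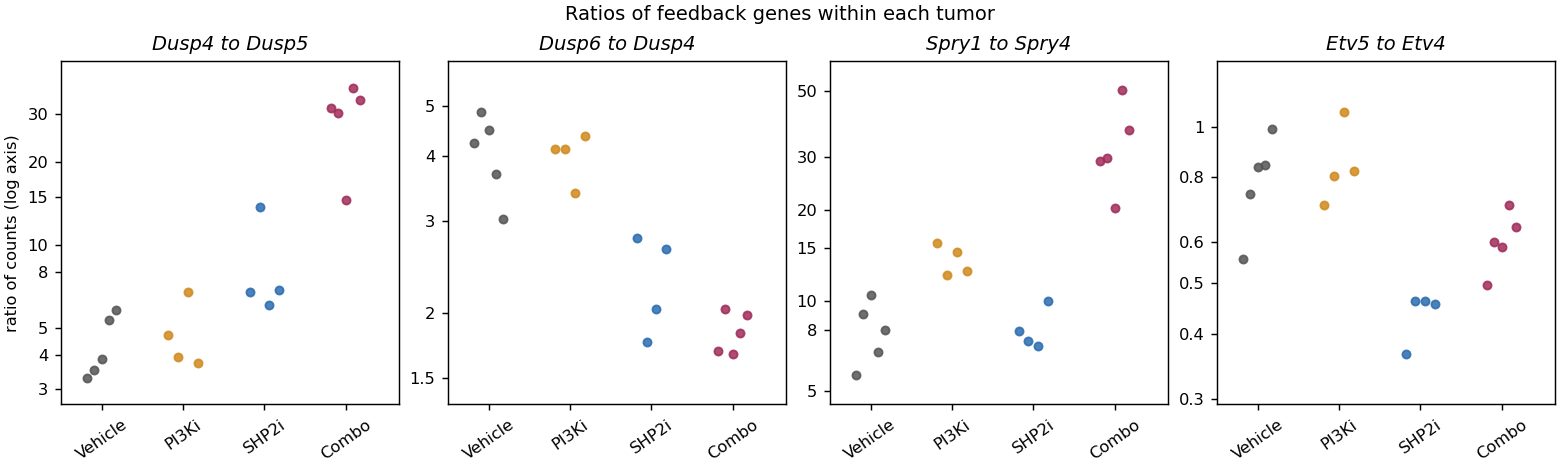
Ratio of the counts of 2 feedback genes within each tumor (points, log axis) by group. Dusp4 to Dusp5 is 14.6 to 37.2 in Combo and 3.31 to 5.82 in Vehicle, and Etv5 to Etv4 is 0.366 to 0.463 in SHP2i.

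Per kilobase of exon, Dusp6 was the most abundant member in Vehicle (88.6 CPM per kb), followed by Spry1 (49.4 CPM per kb), Spred1 (30.7 CPM per kb), Etv4 (26.2 CPM per kb), Dusp4 (25.5 CPM per kb) and Spry2 (20.6 CPM per kb). Spred2 (19.5 CPM per kb) and Etv5 (15.6 CPM per kb) came next, and Dusp5 (6.62 CPM per kb) and Spry4 (3.92 CPM per kb) were the least abundant. In Combo the order at the top changed, with Spry1 at 104.8 and Dusp6 at 64.9 CPM per kb. Dusp5 dropped to 1.65 CPM per kb, below Spry4 at 1.92 CPM per kb. The members with the largest falls in Combo against Vehicle were thus the least abundant, and their values rest on fewer reads than those of the others. This did not hold in SHP2i, where the members called lower included Dusp6, the most abundant in Vehicle. Neighbouring levels of different genes were not tested.

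For each member called against Vehicle, the pair of non-member genes with the nearest profile was found from the mean absolute difference of log2 CPM over 18 tumors, each profile centred on its own Vehicle mean. The genes share the same libraries and groups, so nearness is a description. Nearest to Dusp5 were Egr1, an immediate early transcription factor gene (mean difference 0.233), and Ramp3, a receptor activity modifying protein gene (0.239). Egr1 had log2 fold changes of 0.18, -0.38 and -1.88 in PI3Ki, SHP2i and Combo against Vehicle, beside 0.01, -0.75 and -2.0 for Dusp5. Nearest to Spry4 were Gpr4, a proton-sensing receptor gene (0.138), and Sox7, a transcription factor gene of endothelium (0.174), with log2 fold changes of -1.20 and -1.12 in Combo. The genes nearest to Etv5 were Gng2 (0.178) and Prkcb (0.182), and those nearest to Dusp6 were Ercc1 (0.158) and Gpsm3 (0.159). Prkcb, a protein kinase C gene with high levels in leukocytes, was at -0.91 in SHP2i and -0.77 in Combo, and Etv5 was at -0.95 and -0.46. Macrophage markers had a median log2 fold change of -1.64 in SHP2i and -2.25 in Combo, and their part in the fall of Etv5 was not tested. Dusp4 lay nearest to Kdm5a (0.118) and Zfp799 (0.118), Spry1 to Hps3 (0.145) and Phactr1 (0.162), Spry2 to Akr7a5 (0.081) and Rsu1 (0.084), and Spred2 to Sertad2 (0.073) and B230354K17Rik (0.081). Of these genes, none with a promoter window held a CArG box, and Egr1, Kdm5a and Sox7 had no window.

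The other genes of the pathway were read from lists written from general knowledge. Among 7 other DUSP genes for MAP kinase phosphatases, 1 was higher and 1 lower in SHP2i, 2 were higher and 2 lower in Combo, and 0 were called in PI3Ki. The shares of all genes called were 11.6%, 43.6% and 5.11% in these comparisons. Dusp2, which encodes a phosphatase prominent in activated leukocytes, fell from 12.5 ± 1.26 CPM in Vehicle to 3.56 ± 0.304 CPM in SHP2i (log2 fold change -1.82, SE 0.380, adjusted p = 0.00548) and 2.02 ± 1.67 CPM in Combo (-2.62, SE 0.365, adjusted p = 3.2e-05). In PI3Ki it was at 5.86 ± 0.513 CPM and not called (-1.10, SE 0.367, adjusted p = 0.0957). Dusp16, a phosphatase gene for JNK and p38, rose in SHP2i (0.39, SE 0.116, adjusted p = 0.0395) and in Combo (0.57, SE 0.110, adjusted p = 0.000606), and Dusp10, of similar targets, rose in Combo (0.62, SE 0.122, adjusted p = 0.000653). Dusp1 (0.63, SE 0.207, adjusted p = 0.092) and Dusp10 (0.36, SE 0.128, adjusted p = 0.124) were not called in PI3Ki, and Dusp8 was not called in SHP2i (0.51, SE 0.166, adjusted p = 0.0555). Between the treated groups, 1 of 7 was higher and 1 lower in Combo against SHP2i and likewise against PI3Ki, 2 were higher in SHP2i than in PI3Ki, and 0 were called in the interaction. Of all genes, 22.1%, 37.7%, 24.5% and 2.47% were called in these 4 comparisons.

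Of 12 other feedback regulators tested, 0 were called in PI3Ki and in SHP2i, and 2 were higher and 1 lower in Combo, where 43.6% of all genes were called (5.11% in PI3Ki and 11.6% in SHP2i). Cblb, an E3 ubiquitin ligase gene for receptors (0.45, SE 0.117, adjusted p = 0.00529), and Errfi1, whose product binds and inhibits EGF receptors (0.47, SE 0.137, adjusted p = 0.0104), were the higher genes. Nf1, the gene of neurofibromin, was lower (-0.30, SE 0.102, adjusted p = 0.0262), while Spred2, whose product recruits neurofibromin, was higher in the same tumors. The nearest to a call in PI3Ki was Errfi1 (0.50, SE 0.144, adjusted p = 0.0529), ahead of Lrig3 (0.64, SE 0.286, adjusted p = 0.226) and Spred3 (0.31, SE 0.159, adjusted p = 0.303). In SHP2i these were Nf1 (-0.31, SE 0.109, adjusted p = 0.0733), Lrig3 (0.76, SE 0.285, adjusted p = 0.0892) and Rasa1 (-0.22, SE 0.113, adjusted p = 0.201). For this list 1 was higher in Combo than in SHP2i, 1 was lower in Combo than in PI3Ki, and 0 were called between the single drugs or in the interaction, beside 22.1%, 37.7%, 24.5% and 2.47% of all genes.

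Among 21 genes of the RAS-ERK cascade itself, 1 was higher and 1 lower in PI3Ki, 3 higher and 2 lower in SHP2i, and 11 higher and 6 lower in Combo, beside 5.11%, 11.6% and 43.6% of all genes called. Gab1, an adaptor that binds SHP2 and PI3K, rose in PI3Ki (0.70, SE 0.157, adjusted p = 0.0145). Hras, a RAS gene, was not called in PI3Ki (-0.29, SE 0.110, adjusted p = 0.151). Frs2, an FGF receptor adaptor gene, rose in Combo from 42.2 ± 5.36 to 74.8 ± 7.76 CPM (0.83, SE 0.110, adjusted p = 2.17e-05), and Braf rose there as well (0.64, SE 0.103, adjusted p = 0.00013). In SHP2i, the scaffold gene Ksr1 rose (0.62, SE 0.129, adjusted p = 0.00545), and Rps6ka1, an ERK-activated kinase gene (-0.56, SE 0.118, adjusted p = 0.00573), and the adaptor gene Grb2 (-0.34, SE 0.072, adjusted p = 0.00573) fell. For Combo against SHP2i 1 was higher and 1 lower, against PI3Ki 8 and 5, for SHP2i against PI3Ki 4 and 4, and 0 in the interaction, beside 22.1%, 37.7%, 24.5% and 2.47% of all genes.

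Among 28 other genes that respond to ERK, 1 was higher and 2 lower in PI3Ki, 3 higher and 5 lower in SHP2i, and 3 higher and 11 lower in Combo. Of all genes, 2.69% were higher and 2.42% lower in PI3Ki, 5.05% and 6.54% in SHP2i, and 23.9% and 19.7% in Combo. The median log2 fold change of this list was 0.16, -0.11 and -0.29 in these groups. The lower genes in Combo included Egr1 (34.6 ± 4.95 CPM in Vehicle, 9.38 ± 3.43 CPM in Combo, log2 fold change -1.88, SE 0.222, adjusted p = 6.8e-06) and Plaur, the urokinase receptor gene (-1.02, SE 0.108, adjusted p = 2.36e-06). In SHP2i they included Kcnn4, a potassium channel gene (-0.58, SE 0.115, adjusted p = 0.00378), and the immediate early gene Ier2 (-0.65, SE 0.129, adjusted p = 0.00408). Ptgs2, the gene of cyclooxygenase-2, rose instead, from 125 ± 6.80 CPM in Vehicle to 229.9 ± 21.4 CPM in SHP2i (0.88, SE 0.090, adjusted p = 1.43e-05) and 286 ± 29.7 CPM in Combo (1.20, SE 0.086, adjusted p = 5.93e-08). PI3Ki lowered Myc (-0.53, SE 0.101, adjusted p = 0.00456) and Lif (-0.56, SE 0.158, adjusted p = 0.0479) and raised Ier3 (1.00, SE 0.223, adjusted p = 0.0139). In Combo 2 were higher and 4 lower than in SHP2i, and 5 higher and 15 lower than in PI3Ki. SHP2i had 2 higher and 8 lower than PI3Ki, and the interaction called 2 higher and 4 lower, beside 22.1%, 37.7%, 24.5% and 2.47% of all genes called in these 4 comparisons.

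**Figure D4:**
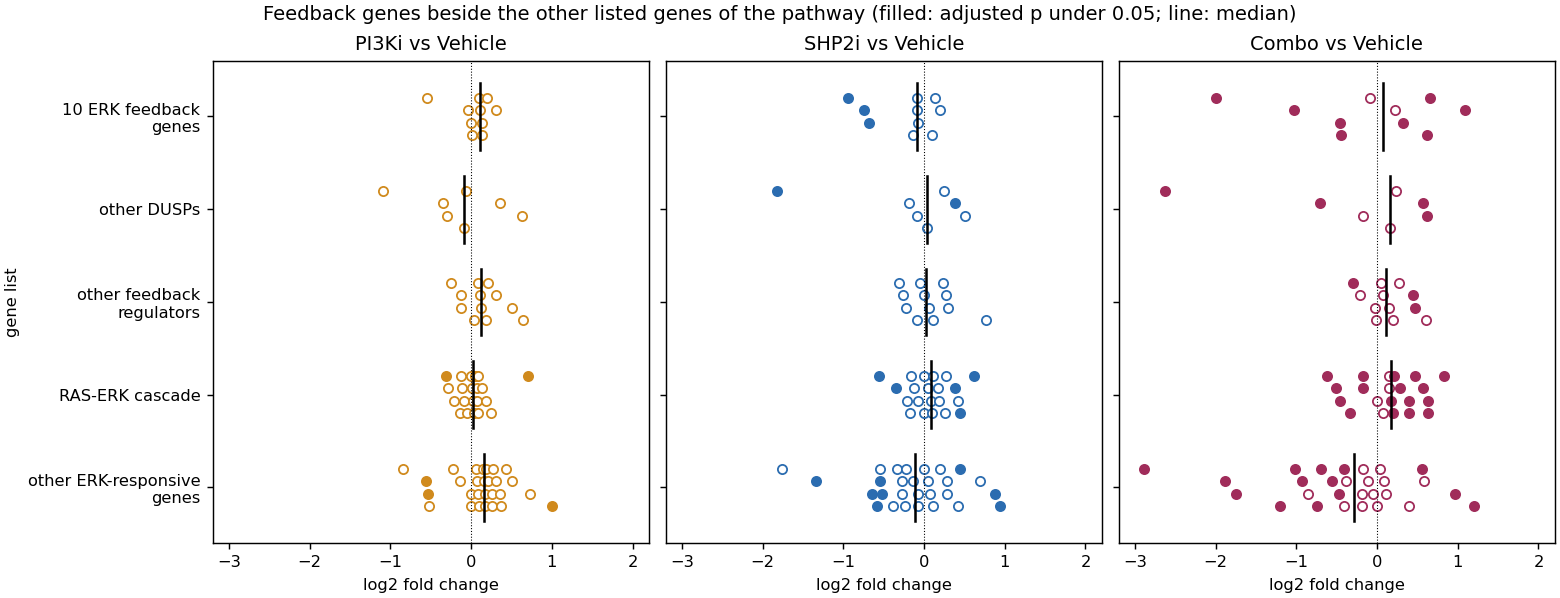
Log2 fold changes against Vehicle of the 10 feedback genes and 4 other lists of the pathway in PI3Ki, SHP2i and Combo. Each circle is a gene, filled where its adjusted p is under 0.05, and the vertical line is the median of the list. In Combo the feedback genes fall on both sides of 0 (4 higher, 4 lower), while 11 of 28 other ERK-responsive genes are lower and 3 higher.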

How the data were processed

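The authors selected poly(A) RNA from frozen tumors, made directional libraries, sequenced read pairs, used cutadapt for trimming, STAR (2 passes, GRCm38) for alignment and QuasR's qCount for counting. What they deposited are raw counts per Entrez Gene identifier, with no normalization. The submitters' processing notes also name hg19. Versions, the gene annotation and the strand setting are not given in the sources used here. Tumors were grouped by the treatment in the labels, and the 18 tumors include no PI3Ki tumor 4 and no SHP2i tumor 1. Each tumor is from its own mouse.

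Counts were fitted for all 18 tumors in 1 model with edgeR 4.0.16 (R 4.3.3): filterByExpr (minimum count 10, minimum total 15), TMM, glmQLFit and glmQLFTest, Benjamini-Hochberg over 15282 genes. Standard errors are the size of a log2 fold change over √F, and log2 CPM used a prior count of 2. The tests were checked on simulated data. Symbols matched 22760 of 22792 identifiers, and exon lengths came from GENCODE vM21. Alternatives were DESeq2 1.42.0, limma 3.58.1 (voom with quality weights), other scaling factors and filters, the compared groups alone, a replicate block, a log2 fold change over 1 each tumor left out, and Combo tumors 3 and 4 left out together. Named are all members, the 3 genes with the smallest p in each pathway list and comparison with Vehicle, and the 2 genes nearest in profile to each called member; Srf, AC137853.2 and Gm42922 were named after their values or positions were seen. A gene that this rule names in the RAS-ERK cascade list is not reported here. The members and lists were chosen with earlier results of these data known.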

Additional observations from a re-analysis of the deposited data

Results flagged for a closer look

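Of 40 sets of 4 or 5 tumors (10 genes in 4 groups), 4 had a tumor set apart from the rest of its group by Dixon's test, and chance flags about 1 in 20 groups. Dusp5 in Combo tumor 3 was 6.81 CPM, against 3.02 to 3.84 CPM in the other Combo tumors. Dusp5 in PI3Ki tumor 3 was 13.2 CPM, against 17.5 to 17.7 CPM in the other PI3Ki tumors. Spry2 in PI3Ki tumor 1 was 51.8 CPM, against 44.2 to 44.4 CPM, and Spred2 in PI3Ki tumor 2 was 70.2 CPM, against 94.0 to 98.4 CPM. The effect of CLR457 on Dusp5 differed between tumors with and without SHP099, with an interaction of -1.26 on the log2 scale (adjusted p = 0.034). That call lay near the threshold and was lost in 13 of 18 fits without a single tumor, as given above. The interaction stayed between -1.528 and -1.145 over the 18 fits.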

How the results depend on the processing

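No called difference of a member changed direction. Of 41 not called, 8 changed sign under some alternative, the largest of them 0.14 on the log2 scale. Of 29 member differences called, 18 kept an adjusted p under 0.05 in each of 18 fits without a single tumor and under every alternative, apart from the added limit on the fold change. These were Dusp6 and Etv5 in SHP2i against Vehicle and PI3Ki, Dusp5, Dusp4, Dusp6, Spry1, Spry4, Spred2 and Etv5 in Combo against Vehicle, Dusp5, Spry1 and Spry4 in Combo against SHP2i, and Dusp5, Dusp6, Spred2 and Etv5 in Combo against PI3Ki. The number of members called in PI3Ki against Vehicle rose from 0 to 1 with DESeq2. With a log2 fold change over 1 as a further limit, it was 0 for SHP2i and 3 for Combo against Vehicle, 2 for Combo against SHP2i, 1 for Combo against PI3Ki and 1 for SHP2i against PI3Ki, since fewer genes pass both limits. With each tumor left out in turn, the number ranged from 0 to 1 for PI3Ki, 2 to 3 for SHP2i and 7 to 9 for Combo against Vehicle, 3 to 7 for Combo against SHP2i (3 without SHP2i tumor 2, 4 without SHP2i tumor 4), 5 to 8 for Combo against PI3Ki, 2 to 3 for SHP2i against PI3Ki and 0 to 1 for the interaction. Fits without a tumor have fewer samples. Without Combo tumors 3 and 4, those of their group with the most B cell marker RNA, Combo against Vehicle lost only Spry2 (adjusted p = 0.0821), and Dusp5 was at -2.35. In the same fit Dusp4 and Spry2 against SHP2i (adjusted p = 0.0925 and 0.0578) and Dusp4 and Spry4 against PI3Ki (0.0689 and 0.0797) were lost. Spry2 in Combo against Vehicle was also lost with voom (0.0927), upper quartile factors (0.0636), no filter (0.0663) and the compared groups alone (0.0754), the last of which also lost Dusp4 (0.062) and Spry2 (0.0866) against SHP2i. Calls gained were Spred1 in Combo against PI3Ki without Combo tumors 3 and 4 (0.0476) and Etv4 in SHP2i against PI3Ki with voom (0.046). The cause was not tested.

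Replicate numbers are shared between groups. Deviations of same-numbered tumors correlated between -0.42 and 0.326 (median 0.018), over 0.1 in 8 of 24 pairs, and 4 of 18 tumors lay closest to one of their own number, so the numbers are treated as names. A replicate block lowered the interaction from 1 member called to 0 (Dusp5, adjusted p = 0.0823) and lost Dusp5 in SHP2i against Vehicle (0.0732) and PI3Ki (0.0583) and Spry2 in Combo against Vehicle (0.0526). It called 200 genes in the interaction instead of 378.

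Over all genes, DESeq2 called 1245 in PI3Ki instead of 781 and 766 in the interaction. Voom called 1902 in PI3Ki and 4887 instead of 1772 in SHP2i. The compared groups alone gave 3192 in SHP2i and 2212 instead of 3375 for Combo against SHP2i. Leaving out single tumors gave 448 to 895 genes in PI3Ki, 1003 to 2211 in SHP2i, 2204 to 3848 for Combo against SHP2i and 149 to 605 in the interaction. Dusp5 in Combo, at 3.02 to 6.81 CPM, rests on the fewest reads of all members.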
